A study of Arabidopsis thaliana with 4 samples.

Results

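The 130 genes described here gave some of the brightest array signals in 14-day-old Arabidopsis thaliana seedlings. They were selected on the signals themselves: a gene was taken where its probe set, the group of short oligonucleotides that stands for a transcript on the array, had a signal of at least 1000 on every one of the 4 arrays, and where the platform table ties that probe set to 1 locus. They are 0.978% of the 13286 genes named in this way. In all, 391 of the 22746 probe sets passed the threshold (1.72%). Of the others, 21 stand for several genes and 240 are not named here, so the 130 genes are the named portion of the bright signals and not all of it. The 130 genes together held 6.96 to 7.25% of the summed signal of an array, and all 391 probe sets held 22.3 to 23.3%.

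The seedlings were Col-0 plants of the T3 line KUA1-IOX, in which a constitutively expressed chimeric activator switches on KUA1, a gene for a MYB-like transcription factor, once estradiol is given. Whole seedlings, 14 days old, were kept for 4 h in liquid Murashige and Skoog medium with a mock solution or with 15 µM estradiol, and Affymetrix ATH1 GeneChips were hybridized with RNA of 2 biological replicates per treatment, 1 array each. One label field gives the mock samples the genotype of a control and another names KUA1-IOX, while by the methods all plants were KUA1-IOX. The 4 arrays hold no estradiol-treated plants that lack the construct, so estradiol and KUA1 induction cannot be told apart. KUA1, which is not among the bright genes, gave 203 and 170.2 in mock and 1887 and 3373 in estradiol samples, in the order that the labels call for.

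A leaf cell devotes much of its messenger RNA to photosynthesis. The light-harvesting antenna passes energy to photosystems II and I in the thylakoid membrane, electron flow between them loads the membrane with protons, a chloroplast ATP synthase uses that gradient, and the Calvin cycle spends the ATP and NADPH to fix carbon dioxide with Rubisco. The subunits of these complexes are encoded partly in the nucleus and partly in the plastid's own genome. Many plastid genes are read from shared, multi-gene transcripts. Other messages that plant cells make in quantity encode parts of the translation machinery, enzymes of central carbon metabolism, metallothioneins and defence proteins.

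A bright probe set is not the same as an abundant transcript, in part because probe sets differ in how well they bind. No order of transcript amounts is read here from signals of different genes, nuclear or plastid. The data themselves set a limit on the label of most abundant transcripts. The probe set of rbcL, the plastid gene for the large subunit of Rubisco, gave only 38.8 and 51.8 in mock and 40.2 and 50.1 in estradiol samples. That of psbA, which encodes the D1 protein of photosystem II, gave 203, 169.6, 202 and 203. Both are known as abundant messages of leaf chloroplasts, and both lay far under the threshold, so the genes below are called bright genes. Of 18 marker genes listed for leaf, root, guard cell, myrosin cell, seed and flower, 2 are named on the platform table, the leaf gene RCA and the root and hypocotyl gene PYK10, and both are bright genes. In RNA of whole seedlings, fewer cells of a type and less RNA per cell cannot be told apart.

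Of the 130 genes, 38 carry an annotation with a symbol or a described product, and their signals on the single arrays are plotted by function. The other 92 are given here by locus number, with values only.

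**Figure D1:**
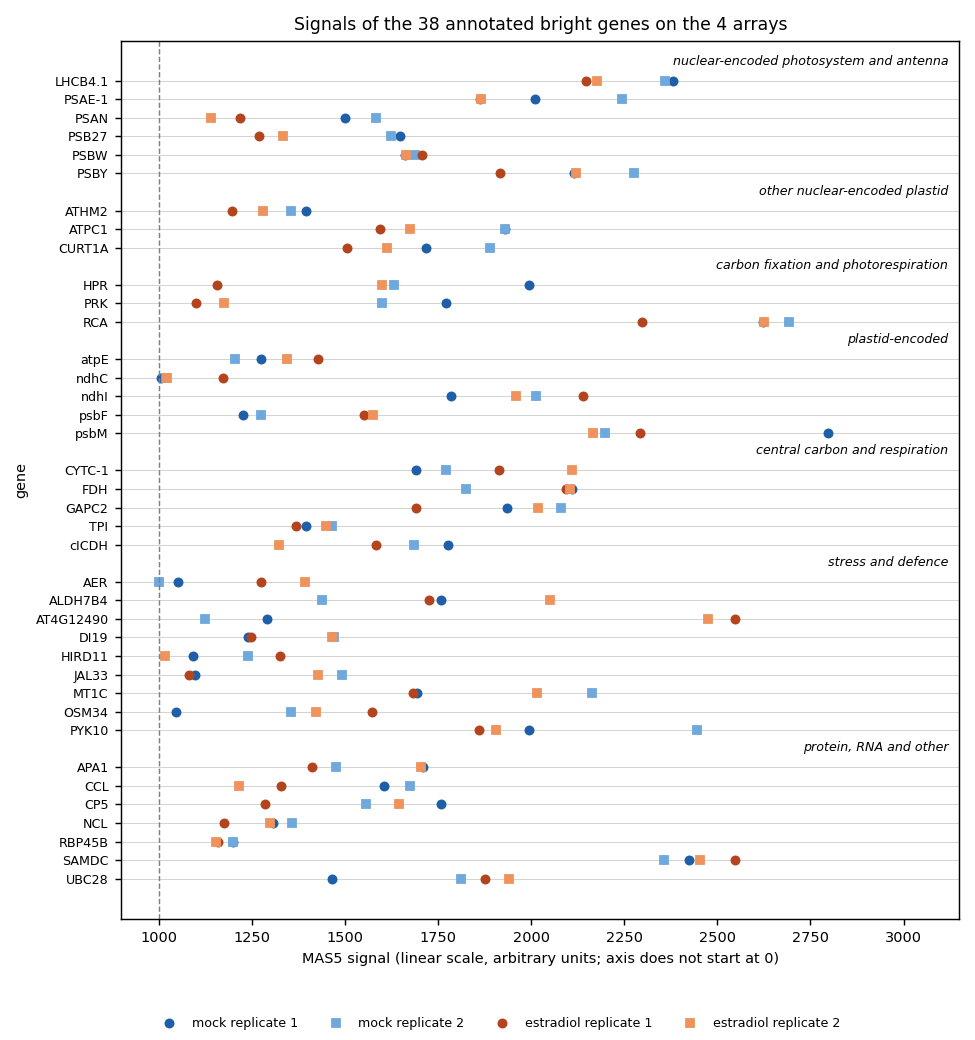
MAS5 signal (x axis, linear, arbitrary units, not starting at 0) of the 38 annotated bright genes (y axis, grouped by function) on the 2 mock arrays (blue) and the 2 estradiol arrays (orange), circles for replicate 1 and squares for replicate 2, with the threshold of 1000 dashed. AT4G12490 stands apart with 1291 and 1124 in mock and 2547 and 2476 in estradiol samples, and for most other genes the 4 points lie close together.

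The bright genes differed little between arrays. The highest of a gene's 4 signals was at the median 1.23 times the lowest, against 1.52 times over all probe sets and 1.33 times over the 285 genes whose lowest signal lay between 500 and 1000. For 55 of the 130 genes (42.3%) this range stayed under 1.2-fold, and for 124 (95.4%) under 1.5-fold, against 12.6% and 48.1% of all probe sets. The rule itself takes part in this, because a gene that dipped under 1000 on a single array was not selected. When genes were instead taken by a geometric mean of at least 1000, 170 genes were found and the median range was 1.27-fold, with 34.7% under 1.2-fold.

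**Figure D2:**
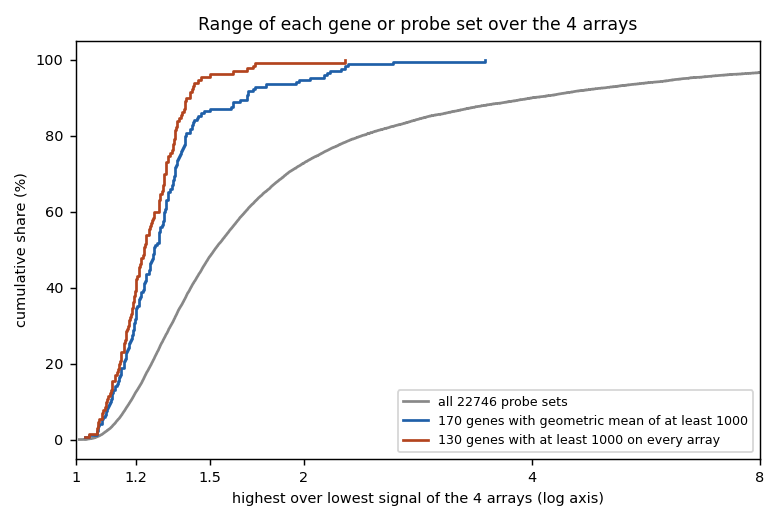
Cumulative share in percent (y axis) of probe sets or genes by the ratio of the highest to the lowest of the 4 signals (x axis, log scale, shown up to 8-fold), for all 22746 probe sets (grey), the 170 genes with a geometric mean of at least 1000 (blue) and the 130 genes with at least 1000 on every array (orange). The medians are 1.52, 1.27 and 1.23-fold, and the 40 genes that the geometric mean adds reach a range of 3.47-fold.

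Between the 2 mock arrays the median difference of a bright gene, without its sign, was 0.16 on the log2 scale (1.12-fold), and between the 2 estradiol arrays 0.13 (1.09-fold). Over all probe sets these medians were 0.30 and 0.29. Spread was largest at the lowest signals and smallest at the highest, and nearly level between. Probe sets with a geometric mean under 30 differed by a median of 0.48 between mock arrays. Those from 30 to 100 differed by 0.23, those from 100 to 300 and from 300 to 1000 by 0.21, and those of at least 1000 by 0.18. The share at least 2-fold apart under 30 was 24.0% between mock arrays and 22.0% between estradiol arrays. At 1000 or more it was 0.204% and 0.816%. The median change in log2 signal from mock to estradiol, without its sign, was 0.076 for the 130 genes (1.05-fold) and 0.22 for all probe sets. With any 1 array left out, and the genes selected again on the other 3, the value for the bright genes was 0.11 to 0.14. A treatment difference is one between means of 2 arrays and a replicate difference one between single arrays, so the first is the smaller of the 2 by construction where treatment adds nothing.

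Of the 130 genes, 61 had higher and 69 lower mean log2 signals in estradiol samples, and the median log2 fold change was -0.0085, against -0.0080 over all probe sets. Each array had been scaled to the same trimmed mean, which drops the highest 2% of signals and so leaves out most bright probe sets. The median near 0 is relative to that scaling. In a limma fit over all probe sets, none of the 130 genes was called at an adjusted p under 0.05, nor was any probe set on the array (0 of 22746, 0%), and the methods' t-test with Benjamini-Hochberg adjustment also called none of the 130. KUA1 itself, 13.6-fold higher in estradiol samples, was not called in the limma fit either (adjusted p 0.158). The lack of a call therefore does not show that a gene was unchanged. At an unadjusted p under 0.05, 4 bright genes (3.08%) passed, against 6.51% of all probe sets. The criterion taken from the methods, at least 2-fold with an unadjusted P under 0.05 in the methods' t-test, was met by 1 bright gene with higher signal and 0 with lower signal, against 0.629% and 0.528% of all probe sets. Both estradiol signals lay above both mock signals for 19 genes (14.6%, against 16.1% of all probe sets) and below both for 24 (18.5%, against 18% of all probe sets). Leaving out single arrays turned the sign of the difference at least once for 75 of the 130 genes and left it the same in each of the 4 cases for 55. With 2 arrays in each group their number limits the precision, and the p-values describe the scatter among these samples alone.

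**Figure D3:**
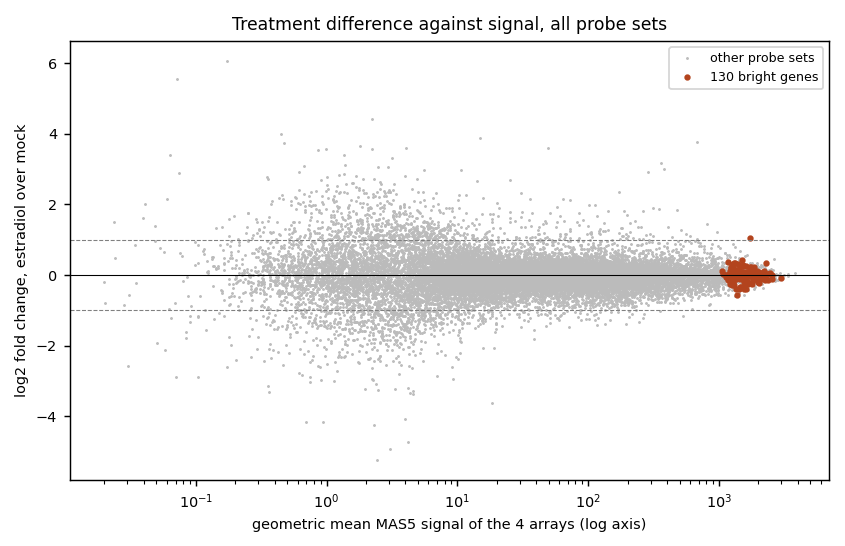
Log2 fold change of estradiol over mock (y axis) against the geometric mean signal of the 4 arrays (x axis, log scale), with the 130 bright genes in orange, the other probe sets in grey and 2-fold differences dashed. The bright genes lie between -0.57 and 1.06, and 1 of them is past 2-fold.

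The largest treatment difference among the bright genes was that of AT4G12490. This gene, for a protein of the bifunctional inhibitor, lipid-transfer and 2S albumin superfamily, gave 1291 and 1124 in mock and 2547 and 2476 in estradiol samples. The groups lay well apart, with a gap between them much wider than the distance between replicates. Its log2 fold change was 1.06 (SE 0.17), or 2.08-fold, with an unadjusted p of 0.000991 and an adjusted p of 0.346 in limma. With any 1 array left out the fold lay between 1.95 and 2.23. It is the only one of the 130 genes on the study's own list of changed genes, which was drawn up on these samples and is not independent evidence.

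Nuclear genes of the photosystems and the antenna make up 6 of the annotated bright genes, and 5 of them had lower mean signals in estradiol samples. LHCB4.1, which encodes the antenna protein CP29 of photosystem II, gave 2382 and 2360.1 in mock and 2149 and 2178 in estradiol samples. PSAE-1, a stromal subunit of photosystem I, gave 2011 and 2244 in mock and 1864 and 1867 after estradiol. For PSAN, a photosystem I subunit on the lumenal side, the mock signals were 1502 and 1585 and the estradiol signals 1219 and 1141. In all of these genes both estradiol arrays lay below both mock arrays, with log2 fold changes of -0.13, -0.19 and -0.39, and none was called in limma (adjusted p 0.980, 0.955 and 0.774). The value for PSAE-1 was -0.11 without mock replicate 2.

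In photosystem II the same gap was seen for PSB27, a lumenal protein that serves assembly and repair of the complex, with 1649 and 1625 in mock and 1270.0 and 1334 in estradiol samples (log2 fold change -0.33, adjusted p 0.839). The groups overlapped for PSBY, a small membrane subunit, whose signals were 2115, 2276, 1916 and 2119 in the same order. PSBW, another small subunit of photosystem II, was the steadiest of the 130 genes. Its 4 signals, 1661, 1689.8, 1708 and 1664, spanned 1.03-fold.

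The other nuclear genes of chloroplast function followed the same order of groups. ATPC1, the gamma subunit of the chloroplast ATP synthase, gave nearly equal values of 1929 and 1931 in mock and lower ones of 1596 and 1674 after estradiol (log2 fold change -0.24, SE 0.16). CURT1A, which bends the thylakoid membrane at the margins of grana, gave 1717 and 1890.4 in mock and 1507 and 1612 in estradiol samples. ATHM2, a thioredoxin of the m type that passes reducing power to chloroplast enzymes, gave 1397 and 1355 and then 1197 and 1279.5. The groups did not overlap for any of these genes, and the differences in log2 signal were -0.21 for CURT1A and -0.15 for ATHM2.

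In carbon fixation, RCA encodes Rubisco activase, which frees Rubisco of inhibitory sugar phosphates. Its signals were 2622 and 2693 in mock and 2298 and 2624 in estradiol samples, and the groups overlapped. PRK, phosphoribulokinase, makes the carbon dioxide acceptor of the Calvin cycle. It had 1773 and 1599.7 in mock and 1100.3 and 1176 in estradiol samples, the lowest log2 fold change of the 130 genes at -0.57 (SE 0.16, unadjusted p 0.0145, adjusted p 0.617), and with any 1 array left out the value stayed between -0.64 and -0.49. HPR, the peroxisomal hydroxypyruvate reductase of photorespiration, gave 1994 and 1633 in mock and 1156 and 1599 in estradiol samples. The estradiol arrays of HPR lay further apart from each other than the mock arrays did, and its log2 fold change of -0.41 moved to -0.17 without estradiol replicate 1 and to -0.64 without estradiol replicate 2.

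Over these 12 nuclear-encoded photosynthesis genes, 11 had lower mean signals in estradiol samples and 9 lay below both mock signals on both estradiol arrays, with a median log2 fold change of -0.20. Across all probe sets, 18% lay below in this way and the median was -0.0080. The median of the 12 genes was -0.20 after quantile normalization and -0.17 after scaling to equal medians, with 11 lower in each, and between -0.25 and -0.16 with 1 array left out. The count apart below moved with the scaling. It was 11 after quantile normalization and 7 with equal medians, against 3909 and 3570 of all 22746 probe sets. The gene lists for the antenna, the photosystems, electron transport, the Calvin cycle and photorespiration hold 12 genes named on the platform, 9 of them bright. Of these 12, 9 lay apart below and 0 above, 2 had an unadjusted p under 0.05 and none was called. For these lists, 11 lay apart below after quantile normalization and 8 with equal medians. The members outside the bright set were LHCB4.2 and LHCB4.3, antenna genes of the same family as LHCB4.1, and SBPASE, the sedoheptulose-bisphosphatase of the Calvin cycle. LHCB4.2 gave 815 and 1212 in mock and 712 and 654 in estradiol samples, and SBPASE 835 and 862 in mock and 581 and 677 after estradiol. LHCB4.3 had a low signal of 68.7, 76.2, 56.3 and 57.1. In each of these the estradiol arrays were the lower ones.

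Plastid-encoded genes had the opposite balance. The bright ones among them were psbF, psbM, ndhI, ndhC and atpE, 5 of the 69 plastid genes measured. The gene psbF encodes a subunit of cytochrome b559 in photosystem II, and its signals were 1226 and 1275 in mock and 1553 and 1575 in estradiol samples, with both estradiol signals above (log2 fold change 0.32, SE 0.16, adjusted p 0.840). For atpE, the epsilon subunit of the chloroplast ATP synthase, they were 1275 and 1205 in mock and 1429 and 1344 in estradiol samples, again without overlap. The genes ndhC and ndhI encode subunits of the chloroplast NADH dehydrogenase-like complex. Of these, ndhC gave 1006, 1019, 1172 and 1022 in the order mock and estradiol, so that estradiol replicate 2 was barely above the mock arrays, and ndhI gave 1784, 2013, 2139 and 1959, with overlap. The gene psbM, for a small subunit of photosystem II, was bright on mock replicate 1 (2798, 2198, 2293 and 2167) and otherwise even.

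The mean signal was thus higher in estradiol samples for 4 of the 5 bright plastid genes, with a median log2 fold change of 0.11 (0.093 after quantile normalization and 0.14 with equal medians, 4 higher in each). Leaving out estradiol replicate 1 gave 0.048, and leaving out estradiol replicate 2 gave 0.21. The 69 plastid genes as a whole had 55 higher and 14 lower means, a median of 0.16, 22 genes apart above and 1 apart below (31.9% and 1.45%, against 16.1% and 18% of all probe sets), and 0 called. The count of higher means was 56 after quantile normalization and 57 with equal medians, and 42 to 60 with 1 array left out, lowest without estradiol replicate 2. Among the 23 plastid genes with a geometric mean of at least 300, 20 were higher, 11 of them apart, and the median was 0.27, or 0.17 without estradiol replicate 1 and 0.17 to 0.29 over the 4 cases with 1 array left out. The array's control probe set for 25S ribosomal RNA, which is no messenger, gave 169 and 260.2 in mock and 188 and 550.4 in estradiol samples, highest on estradiol replicate 2. Its part in the result was not tested.

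Genes next to a bright plastid gene could be compared with it. In the gene order of the plastid genome, psbF stands between psbL and psbE, and psbJ follows psbL. Signals were 879, 967, 1154 and 1249 for psbE, 327, 386, 489 and 474 for psbL and 813, 1171, 1601 and 1325 for psbJ, each in the order of the mock and then the estradiol arrays. All of these neighbours, which were chosen after their values were seen, had both estradiol signals above both mock signals, with log2 fold changes of 0.38, 0.44 and 0.58. The next genes on either side, petA, petL and petG, overlapped between groups, with log2 fold changes of 0.050, 0.088 and 0.050. Their geometric mean signals were 128, 29.99 and 17.3, so petL and petG were dim. Probe sets with a geometric mean under 30 differed by a median of 0.48 between mock arrays. The values of petL and petG therefore cannot tell whether the difference ended at psbE. Beside ndhC and atpE, which are neighbours of each other, atpB (the beta subunit of the ATP synthase) gave 1224, 924, 1265 and 1039, with overlap. On the other side of ndhC, ndhK had the estradiol arrays above at low signals of 18.6, 18.9, 25.5 and 23.2. Further out, rps4 overlapped, and so did ndhJ, rbcL and accD, which were dim, with geometric mean signals of 11.9, 44.8 and 22.9. Next to ndhI, ndhA gave 759, 839, 1059 and 899, with the estradiol arrays above. Beyond ndhA, ndhH (47.1, 51.1, 85.7 and 58.6) and rps15 (21.3, 18.1, 26.7 and 22.3) also had them above, at low signals. On the other side of ndhI, the likewise dim ndhG, ndhE and psaC overlapped. The neighbours of psbM, psbD and psbC among them, overlapped between groups at each of the 6 measured genes nearest to it. Of these, rpoC1, rpoB and petN were dim, with geometric mean signals of 44.1, 6.91 and 17.2.

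**Figure D4:**
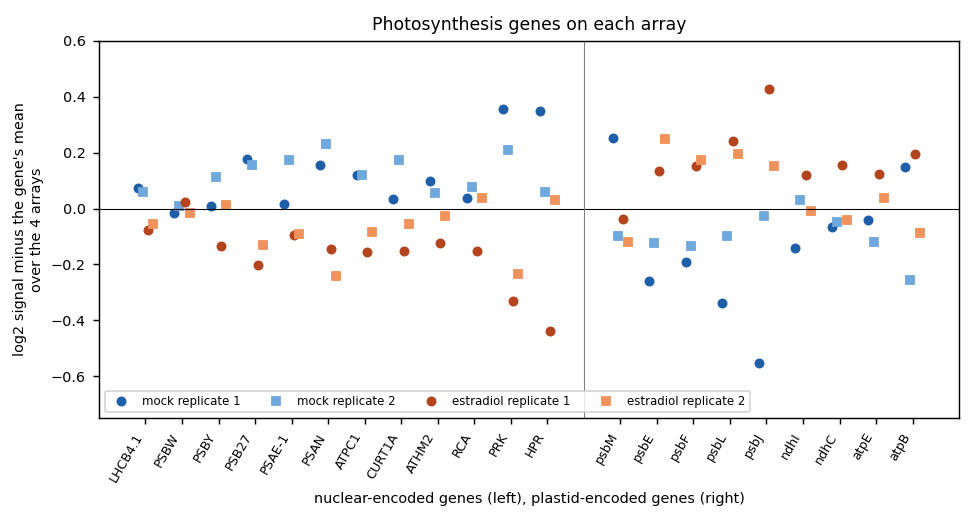
Log2 signal of each array minus the gene's mean over the 4 arrays (y axis) for the 12 nuclear-encoded bright genes of photosynthesis (left) and for 5 bright plastid genes with 4 of their neighbours (right), mock arrays in blue and estradiol arrays in orange, circles for replicate 1 and squares for replicate 2. Estradiol points lie below the mock points for 9 of the 12 nuclear genes and above them for psbE, psbF, psbL, psbJ, ndhC and atpE.

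Enzymes of central carbon metabolism and respiration gave 5 of the annotated bright genes, and all 5 stayed within 1.5-fold over the arrays. TPI, the triosephosphate isomerase of cytosolic glycolysis, had signals of 1397, 1465, 1369.6 and 1449.6 in mock replicates 1 and 2 and estradiol replicates 1 and 2, a range of 1.07-fold. GAPC2, a cytosolic glyceraldehyde-3-phosphate dehydrogenase, gave 1935, 2081, 1691 and 2019 in that order. FDH, the mitochondrial formate dehydrogenase, was lowest on mock replicate 2 (2109.6, 1826, 2093 and 2104). None of these separated the groups. CYTC-1, one of the cytochrome c genes of the mitochondrial respiratory chain, was the exception on the upper side, with 1692 and 1771 in mock and 1915 and 2109 in estradiol samples (log2 fold change 0.22, adjusted p 0.943). The cytosolic isocitrate dehydrogenase cICDH, which makes NADPH, lay below with 1778 and 1686 in mock and 1584 and 1324 after estradiol (log2 fold change -0.26, adjusted p 0.921, -0.13 without estradiol replicate 2 and -0.39 without estradiol replicate 1).

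The genes of stress and defence differed most between replicates among the annotated groups. Of these 9 genes, 1 stayed within 1.2-fold over the 4 arrays, and the median range was 1.38-fold. The median difference between the 2 mock arrays was 0.29 on the log2 scale, against 0.061 for the nuclear photosynthesis genes. PYK10, the beta-glucosidase of the endoplasmic reticulum bodies of root and hypocotyl, had 1994 and 2446 in mock and 1861 and 1906 in estradiol samples. It was brightest on mock replicate 2, and both estradiol signals lay below (log2 fold change -0.23, adjusted p 0.944). This value moved to -0.082 when mock replicate 2 was left out and to -0.38 when mock replicate 1 was. MT1C, a metallothionein, gave 1695, 2164, 1684 and 2016, so that replicate 2 was the brighter one in both treatments. JAL33, a jacalin-related lectin, had the same order with 1098, 1493, 1083 and 1429, and DI19, a drought-induced zinc-finger protein, with 1239.7, 1471, 1248 and 1464. For MT1C, JAL33 and DI19 the replicates of a treatment differed more than the treatments did.

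AER, an alkenal reductase that detoxifies reactive carbonyls, had the lowest single signal of all selected genes. It gave 1052 and 1000.1 in mock and 1275 and 1394 in estradiol samples (log2 fold change 0.38, SE 0.16, adjusted p 0.775), and the groups did not overlap. OSM34, an osmotin-like protein of the pathogenesis-related kind, was at 1047 and 1355 in mock and 1574 and 1424 in estradiol samples. Its log2 fold change was 0.33 but 0.14 without mock replicate 1. ALDH7B4, an aldehyde dehydrogenase of the stress response, overlapped between groups with 1758, 1439.7, 1726 and 2052, and so did the dehydrin HIRD11 with 1093, 1239.7, 1326 and 1017.

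Most of the remaining annotated genes act in protein, RNA, polyamine and ion metabolism. SAMDC, the S-adenosylmethionine decarboxylase of polyamine synthesis, had 2424 and 2358 in mock and 2549 and 2454 in estradiol samples, with the estradiol arrays above by a log2 fold change of 0.065, less than its SE of 0.17 and 0.038 without estradiol replicate 1. RBP45B, an RNA-binding protein, was nearly flat with 1201, 1199, 1160.5 and 1154, a range of 1.04-fold. UBC28, a ubiquitin-conjugating enzyme, was low on mock replicate 1 and gave 1466 and 1812 in mock and 1877 and 1941 in estradiol samples (log2 fold change 0.23, adjusted p 0.944, 0.075 without mock replicate 1 and 0.38 without mock replicate 2). APA1, an aspartic protease, gave 1710.0, 1477, 1413 and 1704, and the sodium and calcium exchanger-like gene NCL 1308, 1358, 1175 and 1299. The groups overlapped for APA1, and for NCL the estradiol arrays lay narrowly below. CP5 gave 1759, 1556, 1285 and 1646, with overlap. CCL had 1606 and 1676 in mock and 1328 and 1217 in estradiol samples, without overlap (log2 fold change -0.37, adjusted p 0.801).

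The 92 bright genes known here by locus number alone held no gene past the criterion of the methods. In estradiol samples 47 had higher and 45 lower mean signals, 10 lay apart above and 10 apart below (10.9% each, against 16.1% and 18% of all probe sets), and the median range over the arrays was 1.23-fold. AT1G62480 had the highest log2 fold change among them, 0.42 (SE 0.16, unadjusted p 0.0434, adjusted p 0.742), with 1359 and 1216 in mock and 1726 and 1723 in estradiol samples. AT4G01870 gave 2099 and 1999 in mock and 2499 and 2692 in estradiol samples, and AT3G27770 1195 and 1136 and 1417 and 1534. Both were higher after estradiol without overlap, by 0.34 each on the log2 scale, with adjusted p of 0.858 and 0.829.

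On the lower side, AT5G24490 had 1688 and 1570.3 in mock and 1209.8 and 1244 in estradiol samples (log2 fold change -0.41, unadjusted p 0.0443, adjusted p 0.745). AT1G13930 gave 1799 and 1871 in mock and 1324 and 1495 after estradiol (-0.38, adjusted p 0.801). With AT4G12490, PRK and AT1G62480, AT5G24490 completes the 4 bright genes with an unadjusted p under 0.05.

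The probe set of AT2G26500 gave 3053, 3085, 2882 and 2916 in the order of the arrays, a range of 1.07-fold. Other probe sets with signals over 2000 on all arrays included those of AT3G15450 (2661, 2404, 2305 and 2807), AT3G49910 (2298, 2442, 2260.0 and 2544) and AT2G45180 (2196, 2457, 2222 and 2517). For AT3G15450, AT3G49910 and AT2G45180 the replicates of a group lay further apart than the means of the groups. AT3G09200, AT5G19510 and AT3G09630 were among the steadiest genes after PSBW and RBP45B. Their signals were 2276, 2298, 2165 and 2312 for AT3G09200, 1755, 1807, 1696 and 1797 for AT5G19510 and 1503, 1456, 1486 and 1551 for AT3G09630, and each spanned 1.07-fold.

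After AT4G12490 and HPR, the widest ranges were those of AT2G15960 and AT5G44020, and they came from differences between replicates. PRK and OSM34, described above, came next, and in both the groups lay apart. AT2G15960 gave 1638 and 1172 in mock and 1348 and 2008 in estradiol samples, so that replicate 1 was brighter in mock and replicate 2 brighter after estradiol. Its log2 fold change of 0.25 was -0.039 without estradiol replicate 2. AT5G44020 had even mock signals of 1324 and 1309 but estradiol signals of 1004 and 1689. The pair AT2G27710 and AT2G27720, which are neighbours in the annotation, gave 1103, 1538, 1319.8 and 1179 and 1169, 1458, 1389.9 and 1345, with mock replicate 2 the brightest array for both.

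**Figure D5:**
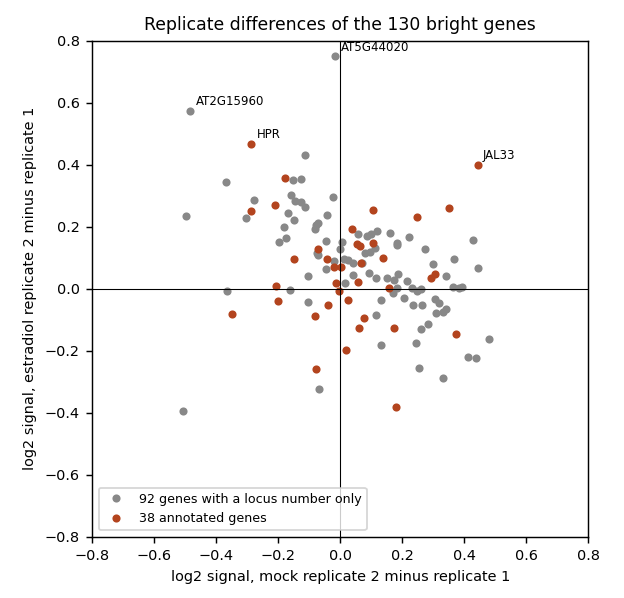
Log2 signal of replicate 2 minus replicate 1 in estradiol samples (y axis) against the same difference in mock samples (x axis) for the 130 bright genes, the 38 annotated genes in orange and the 92 with a locus number only in grey. Most points lie within 0.4 of 0 on both axes, and AT2G15960, AT5G44020, HPR and JAL33 are named.

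Replicate 2 had the higher signal for 80 of the 130 genes in mock and for 90 in estradiol samples. Across genes, the replicate differences of the treatments had a Pearson correlation of -0.37, against -0.13 over all probe sets. This is a description across genes, which share the 4 arrays and are not independent replicates. Spearman's rho between the signals of the 130 genes on any pair of arrays lay between 0.67 (mock replicate 2 and estradiol replicate 2) and 0.84 (both estradiol arrays).

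Genes commonly used as references can be read against the bright genes. Of the reference gene list, GAPC2 and PEX4 (a ubiquitin-conjugating enzyme of peroxisomes) are named on the platform. PEX4 was not bright, with 286, 309, 302 and 308, a range of 1.08-fold. The array's own control probe sets for the 3-prime end of actin gave 1279, 1413, 1149 and 1339.8, a range of 1.23-fold, and those of GAPDH gave 1479.7, 1756, 1733 and 2238, a range of 1.51-fold. None of the 9 actin and tubulin genes of the list was bright. TUA6, an alpha-tubulin, gave 686, 943, 653 and 561, under 1000 on each array. The 4 genes that the antioxidant list matched through a symbol or described product were under the threshold as well, and SAPX, the stromal ascorbate peroxidase, gave 626, 619.5, 484 and 503. Bright genes known here by locus number alone could not be matched to these lists in this way.

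At the threshold itself the selection rested on small margins. The lowest signals of AER, AT5G44020 and ndhC, the genes just inside, were 1000.1, 1004.2 and 1006. Just outside, AT5G64120, LCR69 and AT5G19440 had lowest signals of 999, 999 and 999.1. The 40 genes that only a geometric mean of at least 1000 would add included some of wider spread. AT2G38870 gave 949 and 1039 in mock and 2163 and 623 in estradiol samples, so that the estradiol arrays were the extremes on both sides. AT1G75280, with 836, 1205, 1585 and 1913 in the order of the arrays, and AT5G27760, with 714, 856, 1518 and 1158, had log2 fold changes of 0.79 and 0.76 (unadjusted p 0.0152 and 0.0101, adjusted p 0.625 and 0.559). These genes were chosen after their values were seen. AT1G75280 fell outside the selection through mock replicate 1, and AT5G27760 through mock replicates 1 and 2. With all 40 genes added, 7 of 170 genes had an unadjusted p under 0.05 in limma (4.12%, against 6.51% of all probe sets), and 0 were called. The gene psbJ is among the 7, with an unadjusted p of 0.0480.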

How the data were processed

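RNA of KUA1-IOX seedlings was hybridized to ATH1 arrays, 2 mock and 2 estradiol. The authors deposited linear signal intensities from MAS5 (version not given in the sources used here). Every array has a trimmed mean of 100.0 when the lowest and highest 2% are dropped. Array medians were 36.2 to 38.9. Of 22810 probe sets, 64 controls were left out. Log2 signals of 22746 probe sets were fitted in limma 3.58.1 under R 4.3.3, with an intensity trend in eBayes and treatment as the only term. P-values had Benjamini-Hochberg adjustment over all of them. The methods' t-test (equal variances, log2) was run beside it, and the limma script was tested on simulated data.

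Genes were named from the platform table, which does not list 8730 of the tested probe sets (38.4%, and 61.4% of the bright ones), with symbols updated from RefSeq (assembly TAIR10.1, used for names and gene order only). No locus had more than 1 probe set past the threshold, and none of the 130 probe sets carries the suffix for probes shared between transcripts. The study's own columns of fold changes were not used. Its list of changed genes served for names and to find which bright genes it holds.

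The members and lists were chosen with earlier results of these data known. Genes named in the text are the 10 whose probe sets had the highest geometric mean signal, the 6 with the highest and lowest log2 fold change, the 6 with the smallest and largest range, up to 4 per list, reference genes, KUA1, the 3 on each side of the threshold and neighbouring members. The other annotated members were added afterwards. Other settings tried were median scaling, quantile normalization, log2(signal + 32), no intensity trend, a replicate block, each array left out, other rules for members (lower and higher thresholds, geometric mean, all probe sets), and the methods' t-test on linear signals or with adjustment.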

Additional observations from a re-analysis of the deposited data

How the results depend on the processing

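The count of bright genes called by limma was 0 under every alternative run, including no intensity trend, the methods' t-test with Benjamini-Hochberg adjustment, and the paired fit with a replicate block, which gave 0. The replicate numbers pair nothing that the labels describe. Deviations of same-numbered samples had a correlation of -0.13 over all probe sets, and a crossed pairing, added after seeing the data, also gave 0. The number of genes depended on the rule: 415 at a threshold of 500, 12 at 2000, 391 for all probe sets past 1000, 170 by geometric mean and 132 after quantile normalization or median scaling. With a single array left out it was 131 to 144, the median log2 fold change was -0.065 to 0.049 and the median without its sign 0.11 to 0.14. At the threshold of 2000 the criterion of the methods was met by 0 genes, since AT4G12490 is not above it on the mock arrays, and by 1 under each other alternative run. The median log2 fold change was -0.023 after quantile normalization and 0.017 after median scaling.

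No detection calls come with the signals, and differences under about 1.1-fold are within the typical difference between replicate arrays of these genes.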

Other observations

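The 240 bright probe sets that are not named here had a median range of 1.25-fold over the 4 arrays, against 1.23-fold for the 130 named genes, with 104 higher and 136 lower mean log2 signals in estradiol samples, 13.3% apart above, 21.7% apart below and 0 called in limma (5 at an unadjusted p under 0.05, or 2.08%, against 6.51% of all probe sets). For the 21 bright probe sets that stand for several genes each, the median log2 fold change was 0.0070, and 17 of the 21 were brighter on mock replicate 2 than on mock replicate 1, by a median of 0.21 on the log2 scale.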
